A study of Drosophila melanogaster with 3 samples.

Results

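The constitutive chaperone genes of *Drosophila melanogaster* are 10 genes taken by symbol from the Ensembl annotation, out of 13945 protein-coding genes. They divide into 3 organelle chaperone genes (Hsc70-3, Hsc70-5 and Hsp60A), 5 cytosolic ones (Hsc70-4, Hsp83, Hsp110, DnaJ-1 and Droj2) and the pair Hsc70-1 and Hsc70-2. The measurement was ChIP-seq of CG12659, a small YL1-domain protein related to the INO80C subunit of the INO80 nucleosome remodeller. The flies were 1 stable transgenic line (strain CG12659-GFP) in which CG12659 carries GFP at its C terminus, and chromatin was precipitated with an antibody against GFP. The antibody field of the labels gives CG12659 instead, and the fuller description was followed. Embryos of both sexes, 0 to 24 h old, were used whole, so the values average over all cell types and embryonic stages. There were 3 biological replicates in 1 group, with no second genotype or treatment, and whether the replicates came from separate collections is not stated beyond that word. The labels used here do not name the promoter that drives the fusion gene.

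Molecular chaperones bind unfolded proteins and help them to fold, to cross membranes or to be taken apart. Members of the Hsp70 family work through cycles of ATP binding and hydrolysis, which J-domain proteins stimulate and nucleotide exchange factors reset, while chaperonins enclose their substrates in a ring and Hsp90 acts late on receptors and kinases. Constitutive, or cognate, members are made without heat, whereas the classical Hsp70 genes of the fly are switched on by heat shock factor (Hsf). Hsp83 and DnaJ-1 are made in unstressed cells and respond to heat as well.

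The files hold lists of enriched regions rather than reads, so depth was unknown and no interval for counting error could be given. The reproducible set (IDR peaks, for irreproducible discovery rate) is the part of the pooled list that the authors kept as reproducible between replicates. The pooled list held 30000 regions, and those of replicates 1, 2 and 3 held 30000, 30000 and 28466. Each region carries a signal, the authors' own score, on a scale that is not the same from list to list. It is therefore given here as a rank in its own list, in percent, where a low percentage marks a strong region. A region was placed at a gene's transcription start site (TSS) when its summit lay within 500 bp of any annotated TSS of that gene.

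The sequences before the first TSS of members from each class are shown first, because the peaks of these genes lie at or near them and because Hsc70-1, which has no peak, can then be set beside the others. They were read from the release 6 genome (dm6) in the direction of transcription and end 1 base before the first TSS, trimmed where they would enter an annotated exon. The short stretch of Hsp83 lies before its second TSS, in the 5' UTR of the longer transcript. Capitals mark TATCGATA, the DNA replication-related element (DRE) bound by Dref, the paired heat shock units GAANNTTC and TTCNNGAA, and the TATA box TATAAA, each on either strand.
Hsc70-3 (chrX:11807118-11807317, minus strand): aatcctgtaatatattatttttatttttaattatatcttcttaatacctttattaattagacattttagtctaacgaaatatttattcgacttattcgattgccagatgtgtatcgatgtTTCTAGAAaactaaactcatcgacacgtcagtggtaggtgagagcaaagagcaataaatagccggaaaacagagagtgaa
Hsc70-4 (chr3R:15242487-15242686, plus strand): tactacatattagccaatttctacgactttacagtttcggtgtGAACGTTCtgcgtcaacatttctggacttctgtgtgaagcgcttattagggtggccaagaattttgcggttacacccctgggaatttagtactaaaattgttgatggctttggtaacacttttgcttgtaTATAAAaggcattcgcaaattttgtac
Hsp83, first TSS (chr3L:3192769-3192968, plus strand): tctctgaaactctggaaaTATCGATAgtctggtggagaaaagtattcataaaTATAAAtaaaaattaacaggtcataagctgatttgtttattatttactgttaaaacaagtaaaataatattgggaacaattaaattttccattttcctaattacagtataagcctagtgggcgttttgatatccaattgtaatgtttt
Hsp83, before the second TSS (chr3L:3193137-3193166, plus strand): agaagcctctaGAAGTTTCtagagacttcc
Hsp110 (chr3L:14036837-14037018, plus strand): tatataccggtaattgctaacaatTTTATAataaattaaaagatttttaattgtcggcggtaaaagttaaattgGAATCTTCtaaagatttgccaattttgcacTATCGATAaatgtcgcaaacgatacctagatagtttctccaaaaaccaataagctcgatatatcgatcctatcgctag
DnaJ-1 (chr3L:5752190-5752389, minus strand): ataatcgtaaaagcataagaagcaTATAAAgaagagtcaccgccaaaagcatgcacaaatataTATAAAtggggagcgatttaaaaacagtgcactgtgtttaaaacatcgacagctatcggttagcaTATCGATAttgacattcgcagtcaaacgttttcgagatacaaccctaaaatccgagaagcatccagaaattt
Hsc70-1 (chr3L:13973861-13974060, plus strand): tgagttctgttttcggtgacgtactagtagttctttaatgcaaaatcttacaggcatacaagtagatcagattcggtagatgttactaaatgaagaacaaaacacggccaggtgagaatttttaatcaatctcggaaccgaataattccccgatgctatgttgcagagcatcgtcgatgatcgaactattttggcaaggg

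An IDR peak was found at a TSS of 8 of the 10 genes: all 3 organelle genes, all 5 cytosolic genes, and neither Hsc70-1 nor Hsc70-2. Of all protein-coding genes, 42.3% had one. The same 8 genes had a TSS region in the pooled list, against 57.9% of protein-coding genes, and in the list of each of the 3 replicates, against 49.0%. With 2 kb added on either side of the gene the count was again 8 of 10, against 58.6%. The windows of these genes held 18 IDR peaks, 13 of them at a TSS of the gene, and 34 regions in the pooled list. The replicate lists had 31, 41 and 32 regions there. No statistical test was applied to these counts, because the genes were proposed with earlier results of these data known.

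**Figure D1:**
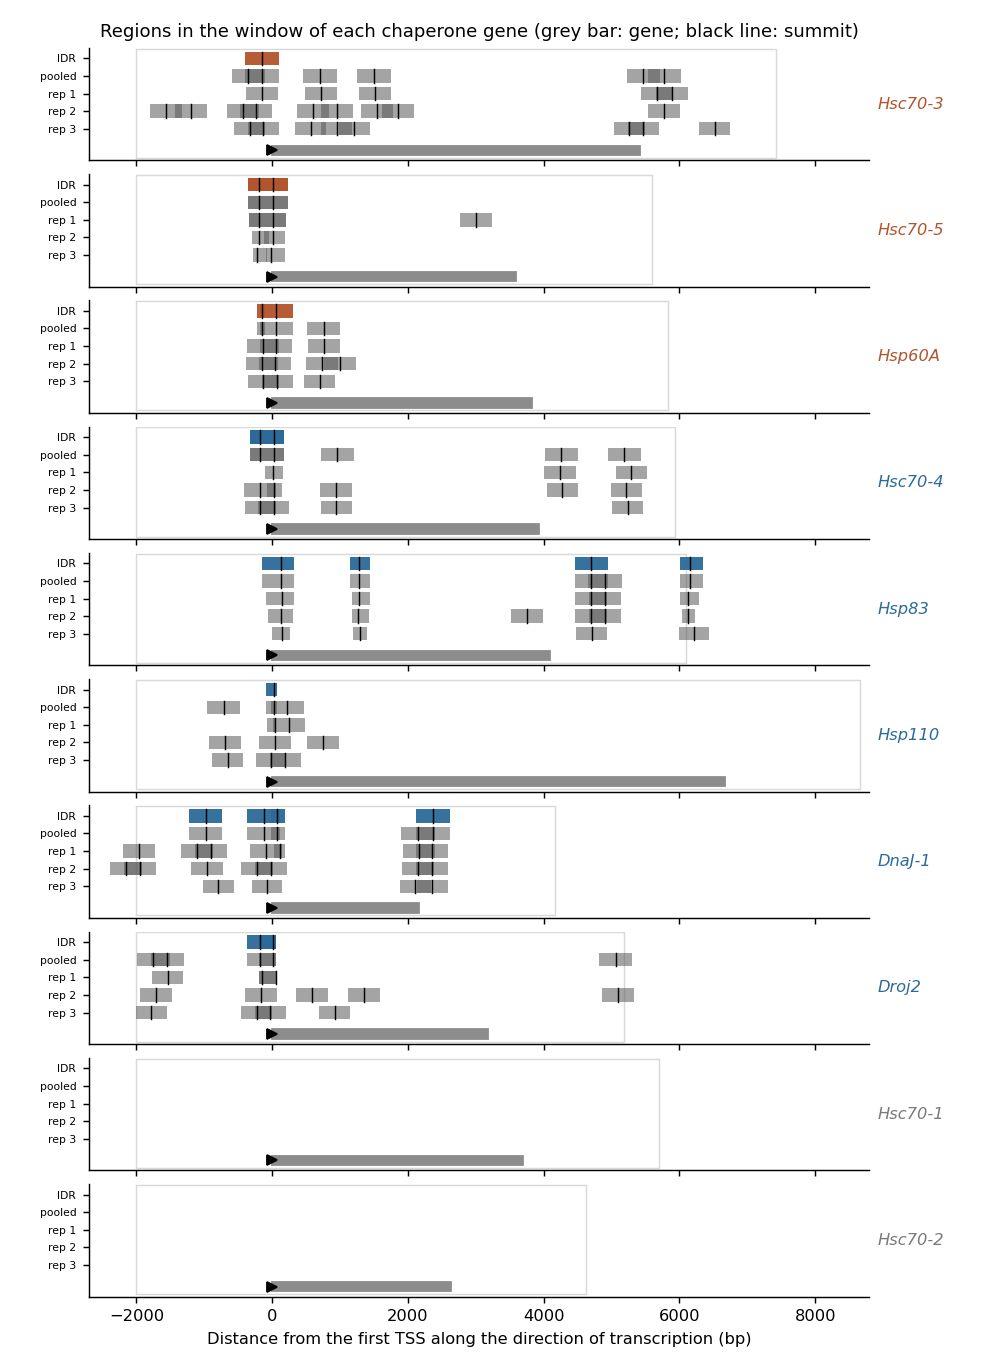
Regions of the 5 lists in the window of each gene, drawn by distance in bp from the first TSS along the direction of transcription. Grey bars are genes, coloured boxes IDR peaks, grey boxes regions of the other lists and black lines summits; the pale frame is the gene with 2 kb either side. Most IDR peaks sit at the gene start, Hsp83 and DnaJ-1 have 4 each, and the frames of Hsc70-1 and Hsc70-2 are empty.

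The organelle genes were led by Hsc70-5, which encodes the mitochondrial Hsp70 (mortalin in mammals), a part of the protein import motor (FBgn0001220, IDR peak at chr2R:14255967-14256544). Its strongest TSS region ranked at 0.610%, 1.13% and 0.734% of the lists of replicates 1, 2 and 3, a mean of 0.824% ± 0.270 (SD, n = 3). In the pooled list its signal was 1537.5, rank 228. The summit lay in the 5' UTR, 15 bp past the TSS in the pooled list and at +9, +6 and −15 bp in replicates 1, 2 and 3, so the replicates placed it within 24 bp of each other. A second summit in the same interval lay 193 bp upstream (signal 1163.2) and ranked at 1.78%, 2.08% and 1.68% in the replicates. The peak also lies at the TSS of CG8531, which points away from Hsc70-5 at a distance of 301 bp.

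Hsp60A (FBgn0015245) encodes the mitochondrial chaperonin, and its stronger IDR peak lay in intergenic sequence at chrX:11108254-11108375. Its strongest TSS region ranked at 11.6%, 16.2% and 19.2% in replicates 1, 2 and 3, a mean of 15.6% ± 3.84 (SD, n = 3). All 3 values were more than 10 times the rank percentages of Hsc70-5 in the same replicates, and the ranges of both genes did not overlap. The summit was placed at −138, −154 and −134 bp, a spread of 20 bp. A weaker IDR summit lay 60 bp past the TSS (signal 188.2 against 374.7 for the upstream one). No other gene has a TSS within 500 bp of either.

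Hsc70-3 encodes the Hsp70 of the endoplasmic reticulum lumen, known as BiP in mammals (FBgn0001218, IDR peak in intergenic sequence at chrX:11807024-11807513). Its strongest region was the weakest among the 8 genes by pooled signal (338.9, rank 4735) and ranked at 23.7%, 12.9% and 14.4% in the replicates, a mean of 17.0% ± 5.85 (SD, n = 3). The summit lay upstream in each replicate, at −146, −235 and −131 bp of the first of its 4 annotated TSSs. This gene had 1 IDR peak but 6 regions in its pooled window and 5, 9 and 8 in those of replicates 1, 2 and 3. Most of the extra regions were weak: the pooled ones beside the IDR peak ranked from 39.6% to 64.5%. The annotated canonical transcript starts further in, and at that TSS there was no IDR summit.

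Among the cytosolic genes Hsp83, the single Hsp90 gene of the fly cytosol, had the strongest TSS region of the 10 by pooled signal and by mean rank (FBgn0001233, IDR peak at chr3L:3192822-3193292). This region ranked at 0.567%, 0.703% and 1.12% in replicates 1, 2 and 3, a mean of 0.798% ± 0.291 (SD, n = 3), with a pooled signal of 1588.2 (rank 206), and in replicate 3 Hsc70-5 ranked higher. Counting each protein-coding gene by its strongest TSS region, Hsp83 stood 207th and Hsc70-5 221st of 8075 genes with a pooled region, which is 1.48% and 1.58% of all protein-coding genes. Both had a TSS region among the highest 1% of the pooled list, as had 2.13% of protein-coding genes, and 2 of the 10 genes did so. The summit was placed at −107, −112 and −107 bp of the second TSS, a spread of 5 bp and the smallest among the 8 genes. The same position is 135 bp past the first TSS, in the 5' UTR of the longer transcript.

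Hsp83 was the single gene of the 10 with an IDR summit inside the gene and over 500 bp from any TSS, which 8.73% of protein-coding genes had. That peak lay in its intron, 1280 bp past the first TSS (chr3L:3194116-3194407), with a pooled signal of 976.7. It ranked at 2.09%, 2.25% and 2.28% in the replicates, so in every replicate it was stronger than the TSS regions of the other 6 genes and weaker than those of Hsp83 and Hsc70-5. The other IDR peaks that touch the Hsp83 window lie at TSSs of CG14966 (signal 431.7) and of CG32276 with gry (798.5). CG14965, whose TSS lies 478 bp from that of Hsp83 and points the other way, had no IDR peak of its own. Of the 31-base words of the Hsp83 gene, 94.5% occur once in the genome; the handling of reads from repeated words is not stated in these sources.

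Hsc70-4 encodes the major cytosolic Hsp70 cognate, which also strips clathrin from vesicles (FBgn0266599, IDR peaks at chr3R:15242357-15242861). Its strongest TSS region ranked at 6.89%, 5.98% and 3.02%, a mean of 5.30% ± 2.02 (SD, n = 3), with replicate 3 the highest. The replicates differed in which summit was stronger. Replicate 1 listed only 1 TSS region, with its summit at +16 bp, whereas the strongest summits of replicates 2 and 3 lay at −175 and −178 bp and their second ones at +33 and +25 bp. In the IDR set both summits were present, at −176 bp (signal 608.2) and +23 bp (525.6). The upstream one lies between Hsc70-4 and tefu, the fly ATM kinase gene, whose TSS is 451 bp away and points the other way, and the other lies in the 5' UTR of Hsc70-4.

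Droj2 (FBgn0038145, stronger IDR peak at chr3R:13381741-13382166) and DnaJ-1 (FBgn0263106, chr3L:5752007-5752199) both encode cytosolic J-domain partners of Hsp70. The strongest TSS region of Droj2 ranked at 3.70%, 6.46% and 4.36%, a mean of 4.84% ± 1.44 (SD, n = 3). Its summit lay at −145, −167 and −227 bp, between the gene and mRpS21, a mitochondrial ribosomal protein gene 297 bp away. DnaJ-1 had values of 7.97%, 8.43% and 16.9%, a mean of 11.1% ± 5.0 (SD, n = 3), so replicate 3 placed it lower in its list than the others did. Its strongest summits were scattered, at +118, −14 and −77 bp, a spread of 195 bp.

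The window of DnaJ-1 held further regions. An IDR peak lay 209 bp past the gene end in intergenic sequence (signal 336.3), 2369 bp from the TSS, and ranked at 12.8%, 18.2% and 22.7% in the replicates. Its summit was placed at 2358, 2357 and 2357 bp from the TSS, far closer together than the summits at the gene start. Another IDR peak lay in the 5' UTR of Usp47, a deubiquitinase gene that starts 784 bp from DnaJ-1 and points the other way (signal 297.4).

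Hsp110 (FBgn0026418) encodes a nucleotide exchange factor of cytosolic Hsp70, and its IDR peak lay at chr3L:14036922-14037087. Its strongest TSS region ranked at 10.1%, 20.2% and 12.9%, a mean of 14.4% ± 5.22 (SD, n = 3), with a pooled signal of 377.6. The summits lay at +41, +43 and −17 bp. The peak is also within 500 bp of the start of an antisense RNA gene, asRNA:CR42871.

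**Figure D2:**
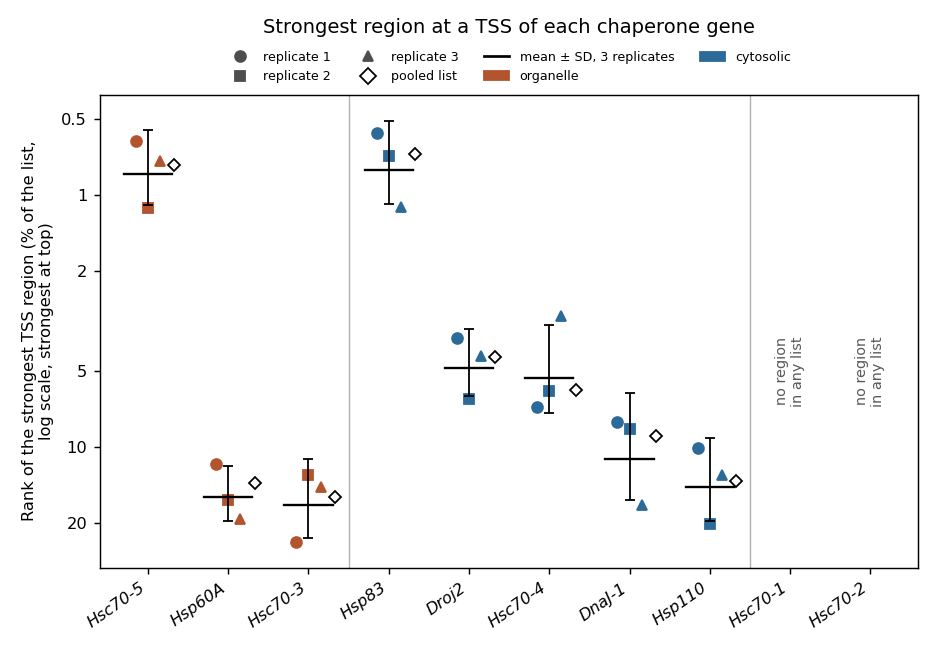
Rank of the strongest TSS region of each gene in percent of its list, on a log axis with the strongest at the top. Points are the 3 replicates, diamonds the pooled list, bars the mean and SD of the replicates (n = 3). Hsc70-5 and Hsp83 stand near 1% in every replicate, the other 6 genes lie between 3.02% and 23.7%, and Hsc70-1 and Hsc70-2 have no region.

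By mean rank over the replicates the order was Hsp83, Hsc70-5, Droj2, Hsc70-4, DnaJ-1, Hsp110, Hsp60A and Hsc70-3. Replicate ranges of neighbours were separate at 2 steps, between Hsc70-5 and Droj2 and between Hsc70-4 and DnaJ-1, where all 3 replicates gave the same order. At the other steps the ranges overlapped. Organelle and cytosolic genes were not separated: the median rank in the pooled list was 13.8% for the 3 organelle genes and 5.92% for the 5 cytosolic genes, and the ranges overlapped in every list. In replicates 1, 2 and 3 the organelle medians were 11.6%, 12.9% and 14.4%, against cytosolic medians of 6.89%, 6.46% and 4.36%. The median of all 5716 IDR peaks at a TSS was 13.2% of the pooled list. That median counts every such peak, weaker ones of a gene included, whereas the values above take the strongest region of each gene.

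Some of these genes had double summits in the IDR set. Hsc70-5, Hsp60A, Hsc70-4, DnaJ-1 and Droj2 had 2 IDR summits at a TSS, which is 5 of 10, against 11.9% of protein-coding genes. That share includes genes without a TSS peak, which cannot have double summits. Among genes with a TSS peak it was 5 of 8, against 1654 of 5903. Not every replicate listed both summits. At a TSS, replicate 1 had 1 region for Hsc70-4 and replicate 3 had 1 for DnaJ-1. For Droj2, replicate 2 listed a summit at −167 bp of the first TSS and none near the IDR summit at +15 bp. Its remaining TSS regions there were weak (67.9% and 67.7%) and lay at other annotated TSSs of the gene. The distances between the 2 IDR summits were 208, 205, 199, 199 and 199 bp, in the order of genes above. Over the 1654 protein-coding genes with such summits the smallest distance was 199 bp and the median 206 bp. Hsc70-4, DnaJ-1 and Droj2 thus stood at that smallest distance, and what sets it was not tested.

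**Figure D3:**
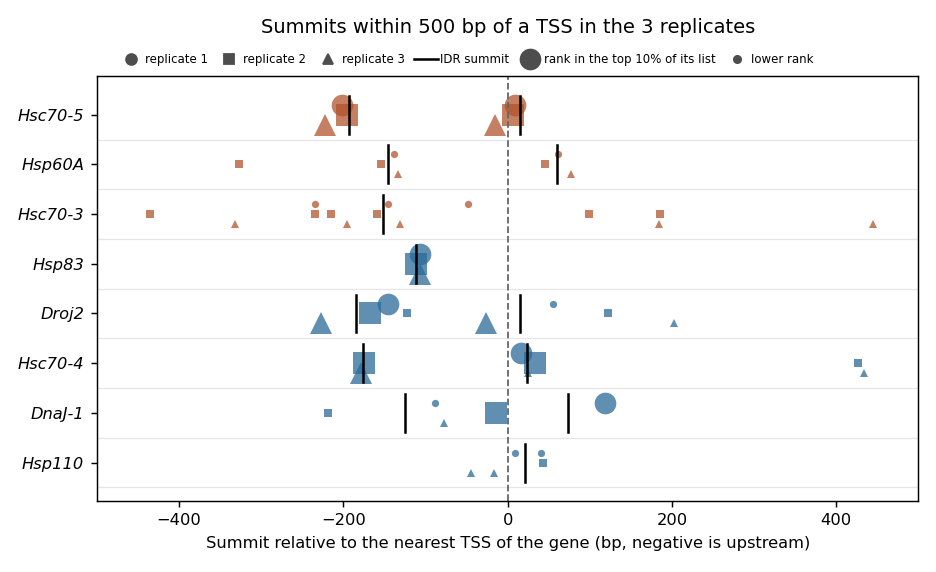
Summits within 500 bp of a TSS for the 8 genes with peaks, as distance in bp from the nearest TSS of the gene (negative is upstream); symbols are replicates, larger where the region is in the top 10% of its list, and black lines are IDR summits. The Hsp83 summits of the 3 replicates fall within 5 bp, and those of DnaJ-1 and Hsc70-4 are spread.

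A protein-coding gene that points the other way starts within 1000 bp of 6 of the 10 genes, against 36.2% of protein-coding genes. These are Hsc70-5, Hsc70-4, Hsp83, DnaJ-1, Droj2 and Hsc70-1. Among the 8 genes with a peak, 3 shared it with a TSS of another protein-coding gene (Hsc70-5, Hsc70-4 and Droj2), against 57.1% of the 5903 protein-coding genes with a TSS peak. For those 3 a peak cannot be assigned to one gene of the pair.

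Hsc70-1 (FBgn0001216, chr3L:13974061-13977761) and Hsc70-2 (FBgn0001217, chr3R:13044759-13047388) encode further Hsp70-family proteins of the cytosol. No region of any of the 5 lists touched either gene or the 2 kb on either side, which was so for 13.7% of protein-coding genes. The nearest IDR peak lay 8.7 kb before the start of Hsc70-1 and 4.5 kb past the end of Hsc70-2. The nearest region of any list to Hsc70-2 was in replicate 3, 2.2 kb past its end, at rank 23217 of 28466. Because the pooled list and those of replicates 1 and 2 stop at 30000 regions, weaker enrichment would not be listed. The 31-base words of Hsc70-1 and Hsc70-2 occur once in the genome in 100% and 99.8% of cases. CG13738, which starts 584 bp from Hsc70-1 and points the other way, had no IDR peak either. A close opposite neighbour of this kind, within 1000 bp, was found at 5 of the 8 genes with a peak. Among all protein-coding genes 36.2% had one, and the share among genes with a TSS peak was not counted. Whether such a neighbour bears on a missing peak was not tested.

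Motifs were searched on both strands, overlaps allowed, from 250 bases before to 50 bases after the canonical TSS. Only exact matches were counted. Heat shock units with a changed base, such as GAG for GAA after the marked pair of Hsp83, were therefore left out. The DRE was in the promoters of Hsp83 (−182), Hsp110 (−78) and DnaJ-1 (−72), which is 3 of 10 against 8.94% of 13944 promoters. Its core CGATA, a part of the DRE, was in 5 of 10 against 46.9%. The head-to-head heat shock pair GAANNTTC was in Hsc70-4 (−157), Hsp110 (−108) and DnaJ-1 (−7), 3 of 10 against 9.35%. In DnaJ-1 the pair runs across the TSS, so the sequence shown above ends within it and leaves it unmarked. In Hsp83 that pair stands 68 bases before the second TSS, which is not the canonical one. The tail-to-tail pair TTCNNGAA was in 2 of 10 canonical promoters (Droj2 and Hsc70-2) against 7.67%, and the heat shock element of 3 alternating units was in 0 of 10 against 0.430%.

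TATAAA was in 7 of 10 promoters (Hsc70-5, Hsp60A, Hsc70-4, Hsp83, Hsp110, DnaJ-1 and Hsc70-2) against 45.3%. At −27 in Hsc70-4, and at −30 of the second TSS in Hsp83, it stands where a TATA box is usually found. The remaining motifs were in 0, 1 or 2 of the 10 promoters. GAGAG, the GAGA factor motif, was in 2 of 10 (Droj2 and Hsc70-2) against 30.2%, CAGCTG in 1 (Droj2) against 17.9%, CAGCNCTG in 1 (Droj2) against 7.19%, and GGTCACACT, bound by M1BP, in 0 against 5.87%. The endoplasmic reticulum stress element (CCAAT, 9 free bases, CCACG) was in 0 of 10, Hsc70-3 included, against 0.0215%.

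The canonical TSS is not the one nearest the peak in every gene, so the motifs of the 8 genes with a peak were also counted around the TSS nearest the peak, a window added after seeing the data. There the DRE was in 2 of 8 (Hsp110 and DnaJ-1) against 17.1% of 5903 genes with a TSS peak, and its core in 4 against 59.6%. GAANNTTC was in 4 of 8 (Hsc70-4, Hsp83, Hsp110 and DnaJ-1) against 8.52%, TTCNNGAA in 1 (Hsc70-3) against 8.27%, and TATAAA in 6 against 46.0%. GAGAG was in 1 (Hsc70-3) against 27.3%, and GGTCACACT in 1 against 12.3%, at −4 of the Droj2 TSS. CAGCTG and CAGCNCTG were in 0 of 8, against 22.8% and 12.4%. The motifs given above for Droj2 thus belong to its canonical TSS and not to the one nearest its peak. The heat shock element of 3 units and the endoplasmic reticulum stress element were in 0 of 8, against 0.407% and 0.0339%.

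Motifs were also counted in a shorter window, within 50 bp of the strongest summit. The shares beside them are of all 5716 IDR summits at a TSS, weaker ones of a gene included. The DRE was at 0 of 8 summits against 5.39% of 5716, GAANNTTC at 2 of 8 (Hsc70-4 and Hsp110) against 2.31%, and TATAAA at 2 of 8 (Hsc70-5 and Hsp60A) against 17.7%. The summit sequence of Hsc70-3 was AT-rich, with 17.8% G or C, and so were those of Hsp60A (23.8%) and Droj2 (26.7%). All 3 fell below the lower quartile of the 5716 IDR promoter summits, 29.7%, while Hsp83 with 50.5% lay above the upper quartile of 44.6%. A motif match is a description of the letters and not a mapped binding site.

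Partner and companion genes were listed by function and read in the same way. Outside the heat-inducible families and Hsf these lists held 53 genes, the 3 Hsp60 paralogs described further below included. Of these 53, 44 (83.0%) carried an IDR summit near a TSS, against 42.3% of protein-coding genes. All 8 subunits of TRiC, the cytosolic chaperonin that folds actin and tubulin, had one, with CCT8 (signal 429.5), CCT3 (424.2), CCT5 (421.7) and CCT7 (371.6) the strongest. With TSSs within 200 bp only, 5 of the 8 did, against 34.5% of protein-coding genes. Without replicate 2 it was also 5, against 37.9%. Except at CCT2, the TRiC peaks also lay at a TSS of another gene, such as CG30349 (CCT8), CG10324 (CCT3) and Oda (CCT5). Such peaks cannot be assigned to the TRiC gene alone. Of protein-coding genes with a TSS peak, 57.1% shared it with another protein-coding gene. All 6 prefoldin genes, whose products hand nascent chains to TRiC, had an IDR summit near a TSS, led by mgr (1216.7), Pfdn6 (613.0), Pfdn2 (534.5) and Pfdn5 (509.0).

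Of the Hsp90 co-chaperone genes 10 of 11 had a peak, led by Tpr2 (739.0), Sgt (605.3), Cdc37 (512.6) and nudC (461.9), and shu was the one without. Of the genes listed as cytosolic Hsp70 co-chaperones 5 of 9 (55.6%) did, near the 42.3% of protein-coding genes. With the canonical TSS only it was 3 of 9 against 39.2%. They were led by mrj (2044.6), stv (917.3), aux (516.1) and DnaJ-60 (503.4). HIP, HIP-R, jdp and Hsc20 had none. In the pooled list 8 of the 9 had a TSS region, all except Hsc20, against 57.9% of protein-coding genes. The J-domain gene mrj thus had a stronger TSS peak than the 10 genes described here, and stv, the fly BAG-domain gene, one weaker than that of Hsp83.

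Organelle partners mostly had peaks as well. All 6 other genes listed as mitochondrial did, led by the protease gene Lon (2630.3), ClpP (554.7), CG11267 (516.2) and Roe1 (500.3), the nucleotide exchange factor of mitochondrial Hsp70. Of the other endoplasmic reticulum genes 9 of 10 did, led by P58IPK (650.5), Pdi (623.6), Calr (583.1) and Sec63 (554.9). Sil1, whose mammalian counterpart is an exchange factor of BiP, was without, but had a TSS region in the pooled list. Several of these peaks are shared with a neighbour, among them Lon with PIG-F, mgr with Irbp and Sgt with BicD.

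Relatives of the same families follow. The Hsp60 paralogs Hsp60B, Hsp60C and Hsp60D had a peak in 0 of 3 cases, while Hsp60A had one. Of the heat-inducible Hsp70 genes 0 of 7 carried one, and with TSSs within 1000 bp 1 did, against 45.6% of protein-coding genes. For the 6 near-identical copies of Hsp70A and Hsp70B, between 0.810% and 11.6% of the 31-base words occur once in the genome. Hsp68, which is 99.9% unique by the same measure, had a TSS region in the pooled list but not in the IDR set, and was singled out after its values were seen. Small heat shock genes had a peak in 3 of 7 cases, or 42.9%, which is the background share of 42.3% to within 1 gene: Hsp27 (1534.1), Hsp26 (707.4) and Hsp22 (529.1), while Hsp23, Hsp67Ba, Hsp67Bc and l(2)efl did not. Hsf had one of signal 325.1, below the median of the IDR peaks, 355.

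**Figure D4:**
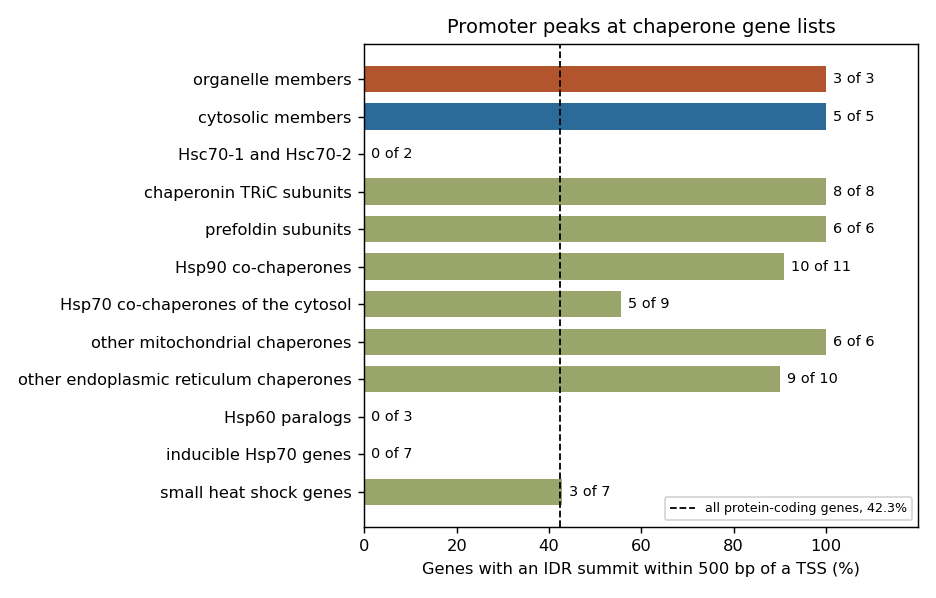
Share of genes in each list with an IDR summit within 500 bp of a TSS, in percent, with the count beside each bar; the dashed line is the share of all protein-coding genes, 42.3%. Organelle and cytosolic genes, TRiC, prefoldin and other mitochondrial genes reach the full share, while Hsc70-1 with Hsc70-2, the Hsp60 paralogs and the inducible Hsp70 genes are at 0.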

How the data were processed

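Regions of CG12659-GFP ChIP-seq came from 3 replicates of 1 group of embryos. Per the file notes, the authors called regions on each replicate and on the pooled replicates against a control alignment, not analysed here, and kept a reproducible set by an IDR step. The deposited score, assigned to each region by the authors, was used only within a list. The sources used here name no aligner, caller, version or threshold. Depth is unknown. Replicates 1 and 2 share 616 regions of identical coordinates, but no list is a copy of another.

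The dm6 lists were joined to Ensembl release 115 (BDGP 6.54) on 6 arms and to the release 6 genome from RefSeq; all 10 genes have the same start and end in both annotations. Coordinates are 1-based and the dm3 lists were not used. Every IDR peak is in the pooled list with the same coordinates and summit. A replicate's rank for a gene is that of its strongest TSS region in that list. To leave a replicate out, the strongest regions of both others, as many as there are IDR peaks, were intersected by an overlap of 50% of the shorter region, in place of a new IDR step (7530, 7509 and 7771 regions without replicates 1, 2 and 3). These sets are smaller, so a count can change with set size. Of 13945 protein-coding genes 13944 have a canonical promoter. The joining steps were tested on simulated data.

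The genes, the 10 companion lists, the 11 motifs and the alternatives were chosen with earlier results of these data known, so no test was run. The motif window at the TSS nearest the peak was added after seeing the data. Named genes were the 10 genes, genes with a TSS at or near their peaks or in their windows, up to 4 genes with the strongest peak in each companion list, members without a peak where 5 or fewer lack one, and genes directly above and below in signal. Listed names matching no gene were Ahsa1, l(2)tid, Tim44, Hyou1 and Hsp67Bb. Some promoter sequences are not reported here. Python 3.11.15, numpy 2.4.6, pandas 2.3.3 and matplotlib 3.10.9 were used.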

Additional observations from a re-analysis of the deposited data

How the results depend on the processing

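The count of 8 of 10 genes with an IDR peak at a TSS was unchanged with TSSs within 200 or 1000 bp, with any overlap of the peak, and without replicate 1, 2 or 3, while the share of protein-coding genes moved between 34.5% and 45.6%. With the canonical TSS only it was 6, because Hsc70-3 and Droj2 have their peak at another TSS, and among IDR peaks above the median signal it was 7, without Hsc70-3, against 39.2% and 28.8% of protein-coding genes. Hsc70-1 and Hsc70-2 had 0 in each of these settings. The IDR peaks in the windows numbered 17 with 1 kb either side, 14 in the gene bodies and 17 with the summit in the window. Of the companion lists, TRiC had 5 with TSSs within 200 bp (34.5% of protein-coding genes) and 4 above the median signal (28.8%). With a replicate left out it had between 5 and 6 (37.2% to 39.0%). The other mitochondrial genes had 4 of 6 with TSSs within 200 bp (34.5%). Above the median signal (28.8%) the prefoldin genes had 4 of 6, the Hsp90 co-chaperone genes 7 of 11 and the other endoplasmic reticulum genes 7 of 10, while the other mitochondrial genes kept 6 of 6. The genes listed as cytosolic Hsp70 co-chaperones had 3 with the canonical TSS only (39.2%). The inducible Hsp70 genes had 1 with TSSs within 1000 bp (45.6%), and Hsf 0 above the median signal (28.8%). The cause of these changes was not tested. Among regions at promoters only, the rank percentages ran from 1.31% for Hsp83 to 29.2% for Hsc70-3, in the same order as in the pooled list. No paired analysis was possible because there is 1 group. Without read counts, enrichment below the listed regions was not detectable.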

Other observations

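Genes next to these 8 in signal give a scale for their TSS peaks. Hsp83 (1588.2) stood between eEF1gamma (1592.3), a translation elongation factor gene, and CG31612 (1580.9). Hsc70-5 (1537.5) stood between Rme-8 (1539.9), itself a J-domain gene of the endosome, and the snoRNA host Uhg4 (1535.4). Droj2 lay between a peak at Kat60 and Mms19 (704.1) and one at CG4829 (702.9), and Hsc70-4 between sotv (608.2) and CG2915 (607.9). DnaJ-1 was flanked by Smyd3 and Dph4 (489.5 each), Hsp110 by Hmt-1 (377.9) and egh (377.6), Hsp60A by Dyb and CG42336 (374.7 each), and Hsc70-3 by CG15531 (339.0) and a peak at CG5828 and Pgant5 (338.7).

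Other genes that reach into the windows differed in whether they have a TSS peak of their own. Around Hsc70-3 both CkIIbeta (637.0) and CG1578 (495.4) had one at their own start outside the window. Neurl4 beside Hsp110 (614.3) and CG11122 beside Hsp60A (324.3) did as well. CG6661, CG42249 and Amt had neither an IDR peak nor a pooled region at a TSS. Mdr50, CG46320, sif, CG9799 and CG8870 had no IDR peak there but did have a pooled region. Around Hsc70-1, CG17364 (402.0) had one and ssp2 and Nxf3 shared theirs (335.7), each away from the window. Around Hsc70-2 none of the genes snk, CG11670, CG45122 and CG31157 had an IDR peak or a pooled region at a TSS.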
